A study of Mus musculus with 43 samples.

Results

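Motile cilia are built on an axoneme, a ring of doublet microtubules around a central pair, and the genes described here are the structural genes of that axoneme that carry the name stems Dnah, Dnai, Rsph, Tekt or Cfap. Of 21938 genes in the count table, 61 had a symbol with one of these stems followed by letters or numbers, and 57 of the 61 were kept because they reached a CPM of at least 1, CPM being the counts of a gene scaled to a common library size, in at least 10 libraries. The kept genes were 14 of 15 Dnah, 2 of 2 Dnai (in this annotation named Dnaic1 and Dnaic2), 7 of 8 Rsph, 4 of 5 Tekt and 30 of 31 Cfap genes. The name stems do not take in every structural gene of the axoneme, and other cilia genes are counted in lists of their own below.

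RNA sequencing reads were counted per gene in the inferior lung lobe of mice in 3 groups. Mice given bleomycin and treated with nintedanib gave 17 libraries, mice given bleomycin and the vehicle of nintedanib gave 16, and control mice given vehicle gave 10. Bleomycin is a DNA-breaking antibiotic used in rodents to produce lung fibrosis, and nintedanib blocks receptor tyrosine kinases, among them those for PDGF, FGF and VEGF. Which vehicle the control mice received is not stated, so the effects of vehicle and of bleomycin cannot be told apart where control lungs are used. Doses, routes, times, strain, sex and age are likewise absent from the labels.

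Dynein arms on the doublets slide one doublet against the next, radial spokes carry signals from the central pair to the arms, and tektins run inside the doublet wall. In the lung, motile cilia stand on the multiciliated cells of the conducting airways, where they move mucus, while the alveolar surface has none. FOXJ1 and the RFX family are the transcription factors best known for switching these genes on, and loss of several of them causes primary ciliary dyskinesia in humans.

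Library totals ran from 13138281 to 19111457 counts. The 57 genes together took 0.0584% to 0.182% of a library's counts under nintedanib, 0.0457% to 0.169% in bleomycin vehicle lungs and 0.0818% to 0.181% in control lungs. In whole-lobe RNA, fewer ciliated cells and less cilia RNA per cell cannot be told apart. Levels of an airway and a fat transcript differed between libraries: Bpifa1, a secreted protein of serous and upper airway epithelium, reached 100 CPM in 4 nintedanib libraries, 0 bleomycin vehicle libraries and 5 control libraries. Adipoq, the adipocyte hormone adiponectin, reached 1 CPM in 5 nintedanib libraries, 0 bleomycin vehicle libraries and 8 control libraries. All 9 libraries with at least 100 CPM of Bpifa1 also had at least 1 CPM of Adipoq. Where content of Bpifa1 or Adipoq is named below, these transcript levels are meant. Whether they track the amount of airway or fat tissue in a lobe was not tested.

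Promoters of the kept genes are shown first, and whether their letters bear on the levels of the genes was not tested. Of the 57 genes, 46 had a promoter in the RefSeq table of GRCm38.p6, and the 250 bases before each start were searched on both strands. The RFX half-site GTTGCC was found in 16 of 46 (34.8%), against 11.8% of the 27025 genes in the table. The longer X-box pattern, GTNNCC and GNNAC with 3 bases between, was found in 10 (21.7%), against 4.39% of genes in the table. A pattern 1 base shorter, GTTGC and GNNAC with 3 bases between, was added after the sequences had been seen, and was found in 15 (32.6%), against 1.42%. The forkhead pattern TGTTTAC was found in 3 (6.52%), against 3.54%. A GTTGCC match can lie inside a match of either X-box pattern, so the counts overlap. The near-identical copies Dnah7a, Dnah7b and Dnah7c count as separate genes, both among the 16 with GTTGCC and among the 15 with the shorter pattern. Their matches to the shorter pattern have the same letters.

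The X-box-like matches of 8 members of the 5 name families are printed as examples, read 5′ to 3′ on the strand of the gene. The match to the shorter pattern is in capitals, with up to 40 bases on each side. These members were picked because they hold a match, so the likeness of the capital letters follows from that choice. In Dnah9 and Rsph14 the pattern reads on the opposite strand.
Dnah9 (chr11:66168581-66168673, minus strand): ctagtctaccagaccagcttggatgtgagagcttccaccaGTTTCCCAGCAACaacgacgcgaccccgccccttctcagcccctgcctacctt
Dnah6 (chr6:73221632-73221707, minus strand): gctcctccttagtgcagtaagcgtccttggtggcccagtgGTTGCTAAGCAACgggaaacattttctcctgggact
Dnaic1 (chr4:41569735-41569793, plus strand): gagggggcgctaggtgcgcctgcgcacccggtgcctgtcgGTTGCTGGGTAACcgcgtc
Dnaic2 (chr11:114727346-114727418, plus strand): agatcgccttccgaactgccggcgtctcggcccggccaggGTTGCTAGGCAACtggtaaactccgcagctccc
Rsph14 (chr10:75032587-75032640, minus strand): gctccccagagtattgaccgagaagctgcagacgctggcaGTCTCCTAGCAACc
Tekt2 (chr4:126325689-126325757, minus strand): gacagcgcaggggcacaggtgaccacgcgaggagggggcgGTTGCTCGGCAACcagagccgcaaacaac
Tekt4 (chr17:25471514-25471589, plus strand): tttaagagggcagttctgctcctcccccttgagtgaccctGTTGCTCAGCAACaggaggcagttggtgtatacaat
Cfap58 (chr19:47937613-47937705, plus strand): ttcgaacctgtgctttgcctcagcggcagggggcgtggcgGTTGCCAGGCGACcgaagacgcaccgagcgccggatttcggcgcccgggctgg
In the 15 promoters the matches began 14 to 101 bases before the annotated start. A match is a description of letters and not a measured binding site.

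The mean log2 CPM of the 57 genes, one value per library, ran from 2.95 to 4.51 with a median of 3.58 under nintedanib, from 2.48 to 4.31 with a median of 3.20 in bleomycin vehicle lungs, and from 3.41 to 4.44 with a median of 4.11 in control lungs. The mean was 3.64 ± 0.45 under nintedanib (SD, n = 17), 3.31 ± 0.56 in bleomycin vehicle lungs (SD, n = 16) and 3.99 ± 0.40 in control lungs (SD, n = 10). The ranges of all 3 groups overlapped. The spread within a group was wide, as the 2 highest bleomycin vehicle libraries, at 4.31 and 4.19, lay above the control median. The control libraries fell into a lower set of 3 at 3.41, 3.43 and 3.44 and a higher set of 7 between 4.09 and 4.44.

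**Figure D1:**
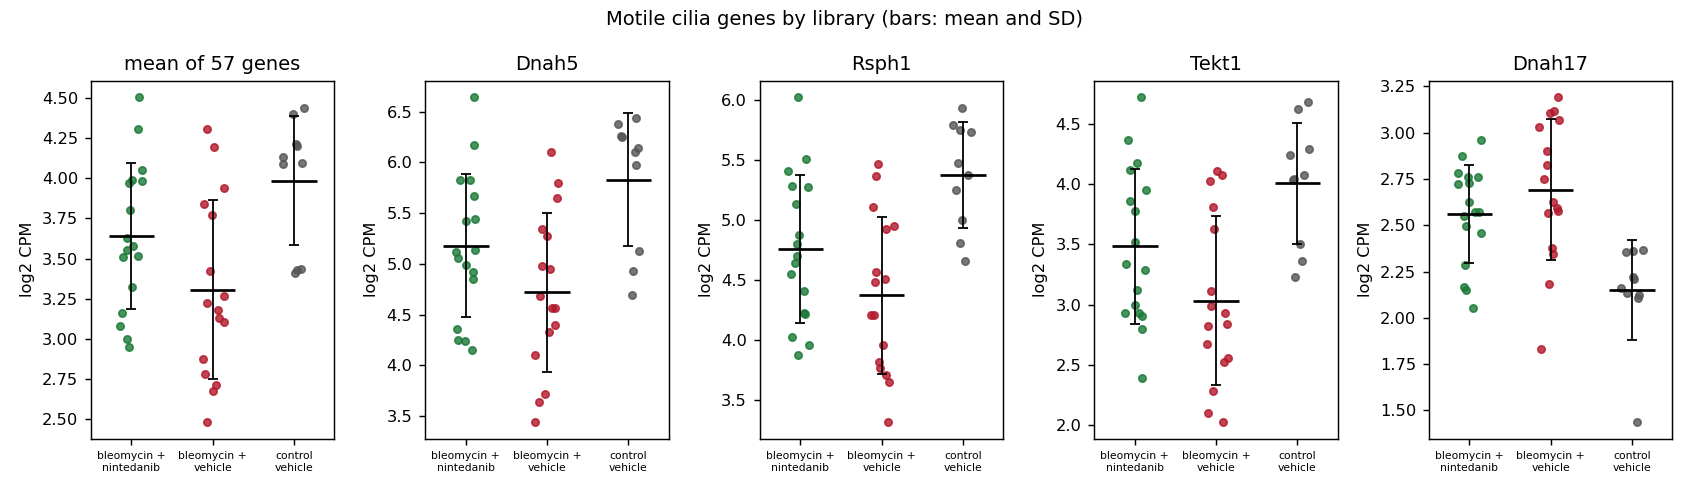
Level of motile cilia genes in log2 CPM (y axis, linear in log2) for each library in the bleomycin plus nintedanib, bleomycin plus vehicle and control vehicle groups (x axis), for the mean of 57 genes and for Dnah5, Rsph1, Tekt1 and Dnah17; bars are the mean and SD. Bleomycin vehicle libraries lie lowest on average in the first 4 panels with overlapping ranges, and the control libraries lie lowest in the Dnah17 panel.

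In bleomycin vehicle against control lungs, 45 of the 57 genes fell and 2 rose (edgeR's quasi-likelihood test, Benjamini-Hochberg adjusted over 14836 genes), where 28.3% of all tested genes fell and 29.5% rose. Their median log2 fold change was -0.74, against -0.01 over all tested genes. Falls were met in every structural group: 4 of 5 outer arm heavy chains, 8 of 9 inner arm heavy chains, 2 of 2 intermediate chains, 6 of 7 radial spoke genes, 3 of 4 tektins and 22 of 30 Cfap genes. The ranges of the 2 groups overlapped for each of the 57 genes, and overlap was not counted over all tested genes. With the log2 CPM of Adipoq and Bpifa1 as covariates 0 genes fell and 1 rose at the same threshold, and the median became -0.19, as described further on.

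Outer dynein arms give the beat its frequency. Dnah5, the outer arm heavy chain present along the whole axoneme, had 10.8 to 68.7 CPM (median 24.7) in bleomycin vehicle lungs, against 25.8 to 86.6 CPM (median 69.7) in control lungs. All 16 bleomycin vehicle libraries lay below the control median, although the ranges overlapped. On the log2 scale it changed by -1.03 ± 0.27 (SE, edgeR adjusted p = 0.0013), the largest fall of the 57 genes. Dnah9, its partner in the outer part of the axoneme, fell by 0.80 on the log2 scale, and Dnah11, its partner near the base, fell by 0.59. The intermediate chains fell likewise, Dnaic1 by 0.86 and Dnaic2 by 0.78. Dnaic1 had 3.33 to 14.8 CPM (median 6.12) in bleomycin vehicle lungs and 8.55 to 17.98 CPM (median 14.3) in control lungs, and 14 of 16 bleomycin vehicle libraries lay below the control median.

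The other outer arm heavy chains, Dnah8 and Dnah17, are best known from the sperm tail. Dnah8 had 2.62 to 7.57 CPM (median 4.12) in bleomycin vehicle lungs and 4.03 to 13.3 CPM (median 4.99) in control lungs, with a log2 fold change of -0.40 ± 0.17 (SE, adjusted p = 0.045 by edgeR). The control library at 13.3 CPM lay far above the next highest, at 6.12 CPM. No fit left out that library alone, so how far the fall of Dnah8 rests on it was not tested. Dnah17 rose, with 3.56 to 9.14 CPM (median 6.45) in bleomycin vehicle lungs and 2.704 to 5.16 CPM (median 4.55) in control lungs. The log2 difference was 0.57 ± 0.13 (SE, edgeR adjusted p = 1.7e-04), and 14 of 16 bleomycin vehicle libraries lay above the control median. Per kilobase of exon both were low, at 0.172 CPM per kb for Dnah8 and 0.365 for Dnah17 over all libraries, against 2.7015 for Dnah5. Of 11 male germ cell genes looked up, 1 passed the count filter (Odf2), so 10 of the 11 were too low to be tested. Exons of Dnah17 share 93 bases with Pgs1, which lies on the opposite strand, and the strand setting of the counting is not given in the sources used here.

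Inner dynein arms shape the bend. Dnah2, which pairs with Dnah10 in the double-headed inner arm, had the smallest adjusted p of the genes that fell, with 8.86 to 34.6 CPM (median 14.4) in bleomycin vehicle lungs and 19.6 to 43.7 CPM (median 34.3) in control lungs. In 15 of 16 bleomycin vehicle libraries it lay below the control median, with a log2 difference of -0.89 ± 0.20 (SE, edgeR adjusted p = 2.5e-04). Its partner Dnah10 fell by 0.86. Of the single-headed chains, Dnah3 fell by 0.91, Dnah1 by 0.80, Dnah12 by 0.71 and Dnah6 by 0.68. The copies Dnah7a and Dnah7c fell by 0.74 and 0.69, while Dnah7b, at -0.37 on the log2 scale (edgeR adjusted p = 0.13), did not pass. Reads of these near-identical copies could have been divided between them or lost, so their separate values are uncertain.

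Radial spokes link the doublets to the central pair. Rsph1, a spoke head protein and the member with the highest level per kilobase of exon (22.3 CPM per kb), had 9.93 to 44.1 CPM (median 20.4) in bleomycin vehicle lungs and 25.2 to 61.0 CPM (median 42.9) in control lungs. The log2 difference was -0.92 ± 0.23 (SE, edgeR adjusted p = 6e-04), with 15 of 16 bleomycin vehicle libraries below the control median. The other spoke head genes, Rsph4a and Rsph9, fell by 0.74 and 0.51, Rsph14 fell by 0.89 and Rsph10b by 0.60. Rsph3a, a spoke stalk gene, fell by 0.32 and its near-identical copy Rsph3b stood at -0.14 (edgeR adjusted p = 0.155), with counts that could have been divided between the copies.

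Tektins are filament proteins of the doublet. Tekt1 had 4.05 to 17.3 CPM (median 7.37) in bleomycin vehicle lungs and 9.35 to 25.8 CPM (median 16.7) in control lungs, and fell by 0.89. Tekt4 fell by 0.82 and Tekt2 by 0.68. Tekt5, known mainly from sperm, stood at 0.19 on the log2 scale (edgeR adjusted p = 0.28), with 2.55 to 10.2 CPM in bleomycin vehicle lungs and 3.76 to 7.88 CPM in control lungs.

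The Cfap genes code for cilia and flagella associated proteins of many kinds. Cfap65 had 20.2 to 101 CPM (median 38.6) in bleomycin vehicle lungs and 48.1 to 136 CPM (median 95.3) in control lungs, and fell by 0.95. Cfap58 and Cfap157, a basal body protein, fell by 0.97 and 0.75. Among the members highest per kilobase, Cfap206, a spoke-associated protein, fell by 0.77, and Cfap126, a protein of the ciliary axoneme, fell by 0.71. Cfap20, a protein of the doublet's inner junction that is found outside motile cilia too, fell by 0.22, with 33.2 to 50.7 CPM in bleomycin vehicle lungs and 44.7 to 50.7 CPM in control lungs. Cfap36, an ARL3-binding protein with the highest level per kilobase among the Cfap genes (16.5 CPM per kb), rose. It had 37.5 to 51.7 CPM (median 48.1) in bleomycin vehicle lungs and 32.2 to 43.3 CPM (median 39.8) in control lungs, a log2 fold change of 0.26 ± 0.05 (SE, adjusted p = 2.6e-05 by edgeR).

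Beside Dnah7b and Rsph3b, 8 genes did not pass, namely Tekt5 and 7 Cfap genes: Cfap52, Cfap53, Cfap61, Cfap97, Cfap99 and the dynein assembly factors Cfap298 and Cfap300. Their log2 fold changes lay between -0.57 for Cfap61 and 0.19 for Tekt5.

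**Figure D2:**
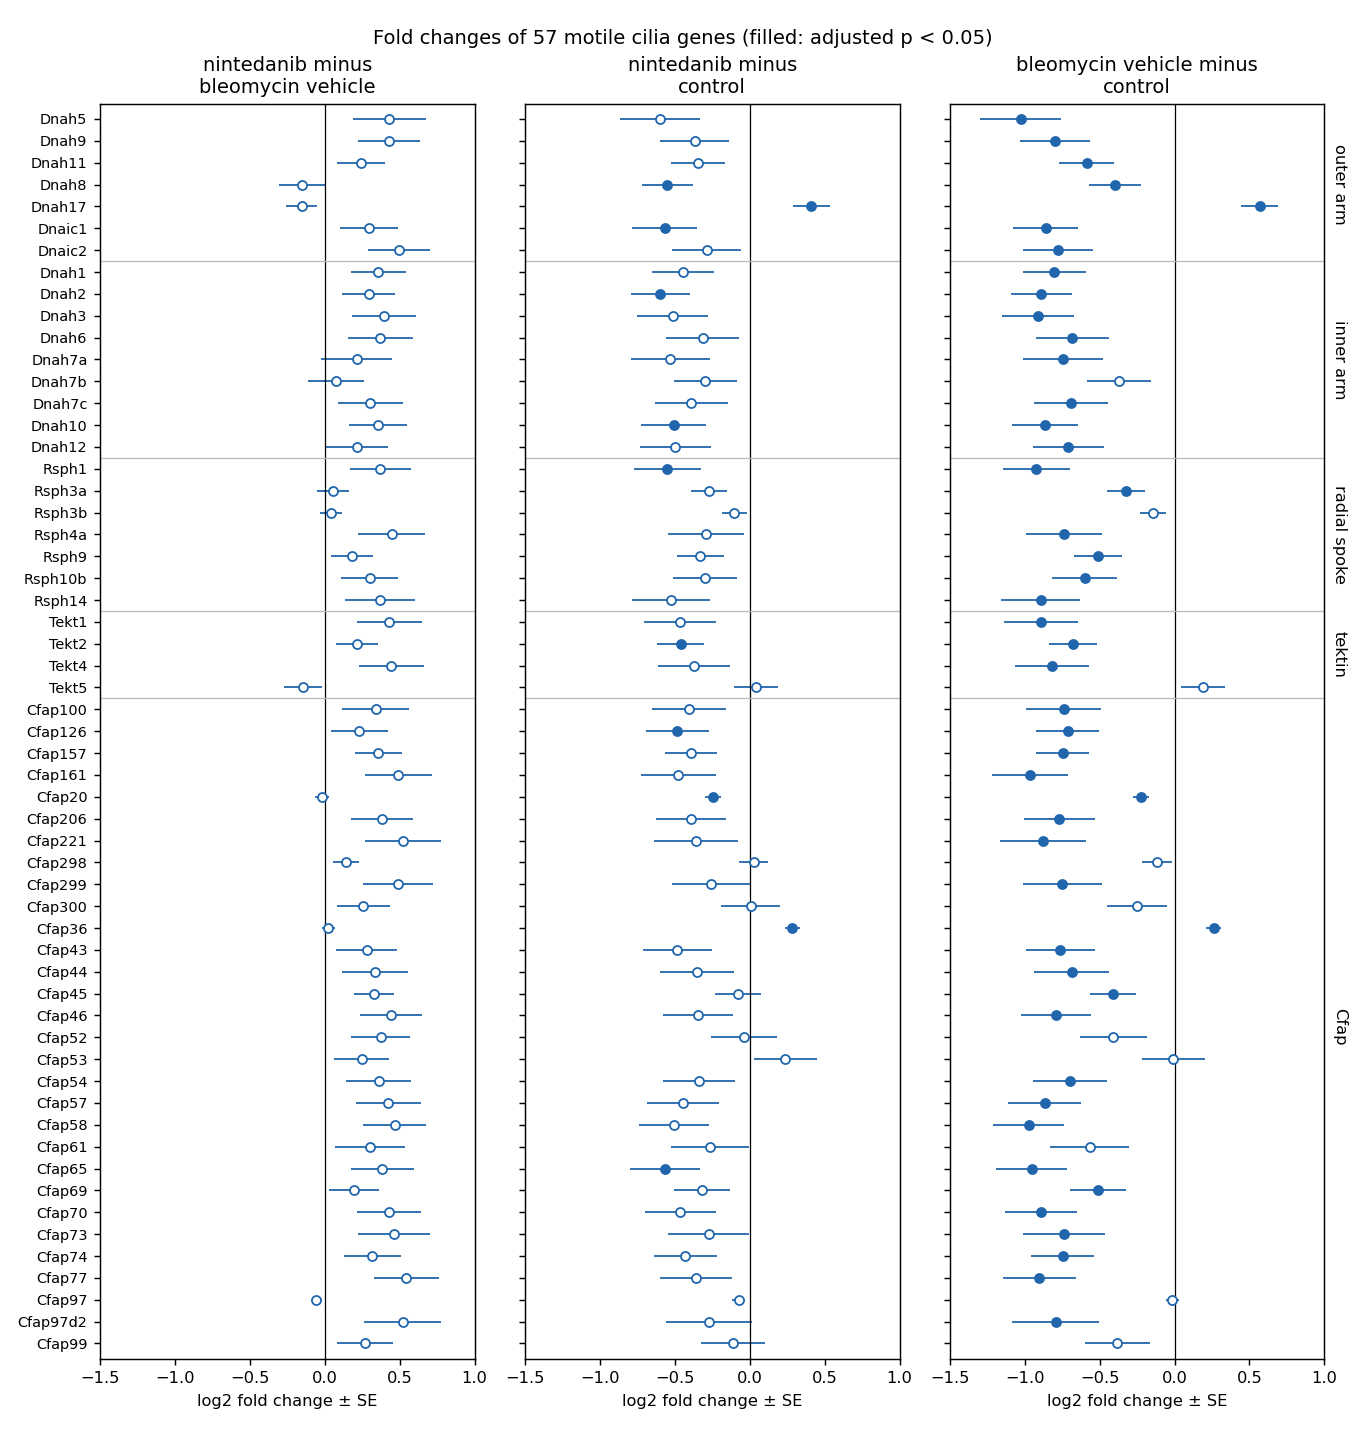
Log2 fold change with its SE (x axis) of each of the 57 genes (y axis, grouped by structural role) in nintedanib minus bleomycin vehicle, nintedanib minus control and bleomycin vehicle minus control; filled points have an adjusted p under 0.05 in edgeR's quasi-likelihood test. In the right panel 45 points are filled left of 0 and 2 right of it, in the middle panel 9 and 2, and in the left panel no point is filled.

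In nintedanib against bleomycin vehicle lungs, 0 of the 57 genes were called (edgeR's quasi-likelihood test), where 3.21% of all tested genes rose and 4.1% fell. Of the 57, 52 had a positive log2 fold change and 5 a negative one, with a median of 0.33. At an unadjusted p under 0.05, 13 genes were higher under nintedanib and 0 lower. The share of all tested genes at this unadjusted cut was not counted. Most of the 57 genes moved together across libraries, so neither the 52 nor the 13 are independent observations. The 13 became 4 with library totals, 5 with only the 2 groups fitted, 20 with the series covariate and 0 in series A, without the Adipoq libraries and with both contents as covariates. DESeq2 also called 0, against 9.26% of all genes. The smallest adjusted p was 0.11, for Cfap77, a protein inside the doublet. Cfap77 had 3.78 to 15.9 CPM (median 7.60) under nintedanib and 2.44 to 12.3 CPM (median 5.25) in bleomycin vehicle lungs, a log2 fold change of 0.54 ± 0.22 (SE). Next by p came Cfap45, Cfap157 and Cfap58, with log2 fold changes of 0.33, 0.36 and 0.47 that did not pass.

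Dnah5 had 17.8 to 99.9 CPM (median 34.8) under nintedanib, against 10.8 to 68.7 CPM (median 24.7) in bleomycin vehicle lungs. The log2 difference was 0.43 ± 0.24 (SE, edgeR adjusted p = 0.26), and 13 of 17 nintedanib libraries lay above the bleomycin vehicle median. Rsph1 stood at 0.37 (edgeR adjusted p = 0.25), with 12 of 17 nintedanib libraries above that median. The 5 negative values belonged to Dnah8 (-0.15), Dnah17 (-0.16), Tekt5 (-0.15), Cfap97 (-0.06) and Cfap20 (-0.02). The 4 nintedanib libraries with at least 100 CPM of Bpifa1 had a mean of the 57 genes between 3.97 and 4.51, and the other 13 between 2.95 and 4.05. Without the Bpifa1 libraries the median log2 fold change of the genes was 0.10, and 0 genes were called by edgeR or had an unadjusted p under 0.05, where 2.06% of all genes rose and 2.53% fell.

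In nintedanib against control lungs, 9 of the 57 genes fell and 2 rose, where 25.1% of all tested genes fell and 28.1% rose. The median log2 fold change was -0.36. The 9 were Dnah2, Dnah8 and Dnah10 among the heavy chains, the intermediate chain Dnaic1, the spoke head gene Rsph1, Tekt2, Cfap20, Cfap65 and Cfap126. Dnah2 fell by 0.60, with 11.8 to 37.7 CPM (median 20.1) under nintedanib and 19.6 to 43.7 CPM (median 34.3) in control lungs. Dnah8 fell by 0.55, with a median of 3.74 CPM under nintedanib and 4.99 CPM in control lungs. The control library with 13.3 CPM of Dnah8 enters this value too. Cfap20 fell by 0.24, with 34.4 to 50.3 CPM (median 40.2) under nintedanib and 44.7 to 50.7 CPM (median 48.8) in control lungs.

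The genes that rose against control were again Cfap36 and Dnah17. Cfap36 had 43.1 to 55.0 CPM (median 47.4) under nintedanib and 32.2 to 43.3 CPM (median 39.8) in control lungs, and all 17 nintedanib libraries lay above the control median (log2 fold change 0.28 ± 0.05, SE, adjusted p = 7.3e-06 by edgeR). Dnah17 had a log2 fold change of 0.41 ± 0.12 (SE, adjusted p = 0.0048 by edgeR), with 14 of 17 nintedanib libraries above the control median. The control libraries are shared with the bleomycin vehicle against control comparison, and the nintedanib libraries with the nintedanib against bleomycin vehicle comparison. The repeated rises therefore rest in part on the same control libraries. The count of falls in this comparison depended on the fit, with 22 when the 2 groups were fitted alone (30.5% of all genes fell), 20 with the number series of the library name as a covariate (25.9%) and 17 with library totals in place of TMM factors (32.7%). With content taken into account it was lower. It was 3 without the Bpifa1 libraries (22.1% of all genes fell), which leaves 13 nintedanib and 5 control libraries. The median log2 fold change there was -0.36, as with all libraries, so fewer calls came without a smaller median. With both contents as covariates 2 genes fell (20.9%), and the median log2 fold change was -0.04. Without the Adipoq libraries, which leaves 12 nintedanib and 2 control libraries, 0 genes fell by edgeR or at an unadjusted p under 0.05 (11.1%), and the median was 0.15.

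The genes were then set against Foxj1, which is not one of the 57. Foxj1 had 49.0 to 231 CPM (median 98.5) under nintedanib, 45.3 to 181 CPM (median 77.6) in bleomycin vehicle lungs and 76.5 to 205 CPM (median 137) in control lungs. It fell by 0.63 on the log2 scale in bleomycin vehicle against control lungs (adjusted p = 0.014 by edgeR), and stood at -0.10 with Adipoq and Bpifa1 as covariates (adjusted p = 0.79). A slope was fitted for each gene as the change in log2 level per unit of log2 Foxj1, with group terms, so that it describes libraries within groups. The slope was positive and passed the threshold for 52 of the 57 genes, where 17.1% of all tested genes passed in that direction, and the median slope was 0.96. A slope of 1 means that a gene doubled with each doubling of Foxj1. Of the 57, 40 had a slope of at least 0.8, 9 a slope of 0.4 to 0.8 and 8 a slope under 0.4.

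The steepest slopes were those of Dnah5 and Cfap221, both 1.17. Tekt1, Dnah7a and Cfap77 had slopes of 1.07. Rsph1 had a slope of 0.98, Dnaic2 of 0.98 and Dnaic1 of 0.92. The lowest slopes that passed were those of Cfap20 (0.14), Rsph3b (0.25) and the assembly factor Cfap298 (0.32). The 5 genes whose slopes did not pass were Cfap36 (0.05), Cfap97 (-0.02), Dnah8 (-0.02), Dnah17 (-0.13) and Tekt5 (-0.15). Fitted within one group, the slope passed for 52 genes under nintedanib (7.7% of all tested genes), 51 in bleomycin vehicle lungs (11.7%) and 45 in control lungs (3.72%), and no gene's slope was called as differing between groups (0.0809% of tested genes were).

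**Figure D3:**
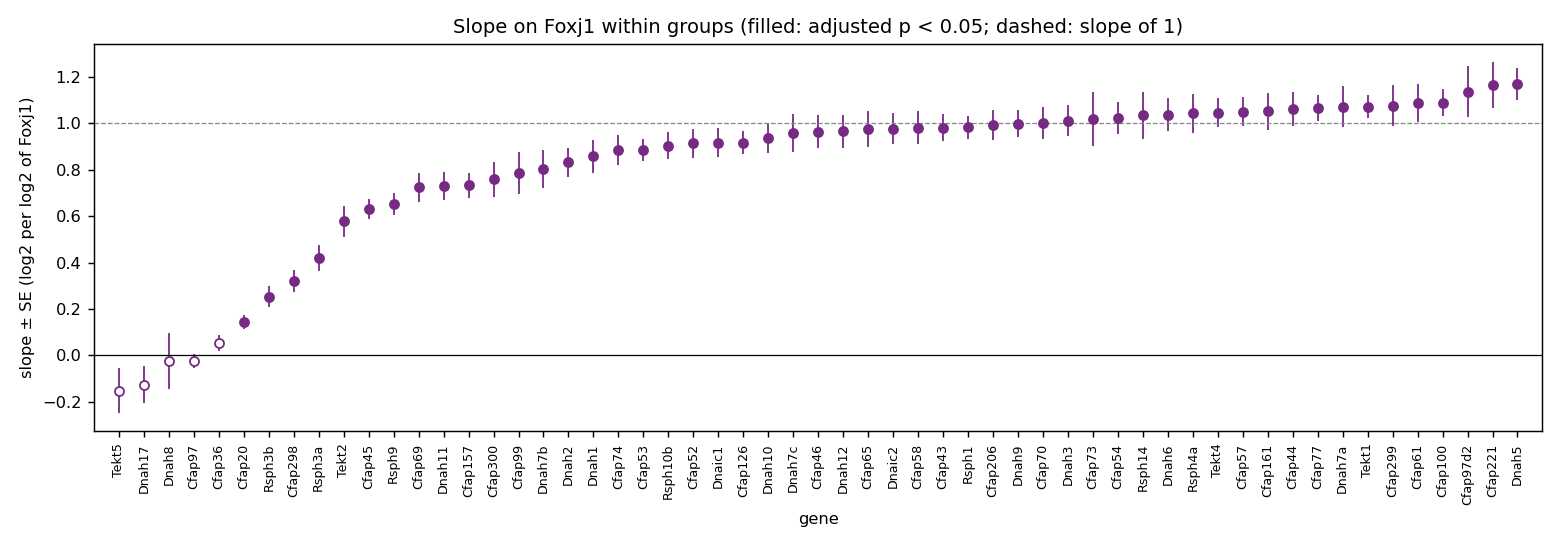
Slope on Foxj1 with its SE, in log2 units per log2 unit of Foxj1 (y axis), of each of the 57 genes in ascending order (x axis), over 43 libraries with group terms; filled points have an adjusted p under 0.05 and the dashed line marks a slope of 1. The 5 open points at the left are Tekt5, Dnah17, Dnah8, Cfap97 and Cfap36, and 40 genes lie at 0.8 or above.

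Genes outside the 57 whose log2 CPM, centred within groups, was most like the mean of the 57 were Cdhr3 (Pearson's r = 0.990), Ccdc40 (0.984), Drc3 (0.983), Kndc1 (0.982) and Spag16 (0.982), over 43 libraries that share the depth and content of each lobe with the members. These values are given as a description. Among the members themselves the correlation of a gene with the mean of the others was highest for Cfap43 (0.987) and lowest for Dnah17 (-0.28), Tekt5 (-0.19), Dnah8 (-0.04), Cfap97 (0.04) and Cfap36 (0.27).

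The 15 genes with the shorter X-box pattern had slopes on Foxj1 from 0.14 to 1.14 with a median of 0.98, and the other 31 with a matched promoter had slopes from -0.15 to 1.17 with a median of 0.91. Dnah17, whose slope did not pass, held both the longer X-box pattern and the forkhead pattern. It is printed to show that a member without a Foxj1 slope can hold these letters too, with both matches in capitals.
Dnah17 (chr11:118129325-118129460, minus strand): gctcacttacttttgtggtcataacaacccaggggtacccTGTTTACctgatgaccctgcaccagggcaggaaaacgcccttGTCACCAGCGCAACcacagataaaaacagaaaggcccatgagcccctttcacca

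With Foxj1 as a covariate, 15 of the 57 genes were still lower in bleomycin vehicle than in control lungs and 3 were higher, where 22% and 25.4% of all tested genes were, and the median log2 fold change was -0.13. Dnah5 had a value of -0.30, Rsph1 of -0.31 and Dnah2 of -0.38. The 3 higher genes were Cfap36 (0.30), Dnah17 (0.48) and Cfap53 (0.53 ± 0.08, SE, adjusted p = 8.2e-07 by edgeR). Cfap53, a protein of the doublet interior, had 4.997 to 21.8 CPM (median 9.41) in bleomycin vehicle lungs and 6.60 to 15.2 CPM (median 10.7) in control lungs, with a log2 fold change of -0.01 without the covariate. In nintedanib against bleomycin vehicle lungs, Cfap77 alone was called with this covariate, at 0.24 (adjusted p = 0.037), where 4.83% of all tested genes rose and 4.33% fell.

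Bpifa1 had 0 to 2362 CPM (median 1.465) under nintedanib, 0.267 to 20.2 CPM (median 1.99) in bleomycin vehicle lungs and 1.12 to 1187 CPM (median 144) in control lungs. Adipoq had 0 to 57.4 CPM (median 0.0625) under nintedanib, 0 to 0.342 CPM (median 0) in bleomycin vehicle lungs and 0 to 120 CPM (median 12.002) in control lungs. Of the 5 control libraries with at least 100 CPM of Bpifa1, all had a mean of the 57 genes of 4.09 to 4.44. The 3 low control libraries had 2.64, 3.82 and 1.12 CPM of Bpifa1, and one of them had the highest Adipoq level of the study at 120 CPM. Of the 2 remaining control libraries, with 80.3 and 10.3 CPM of Bpifa1, both had a mean of the 57 genes in the higher set, at 4.40 and 4.09. Among control libraries, the 3 with the least Bpifa1 were thus the 3 with the lowest means of the cilia genes. All control libraries with 10.3 CPM of Bpifa1 or more lay in the higher set.

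**Figure D4:**
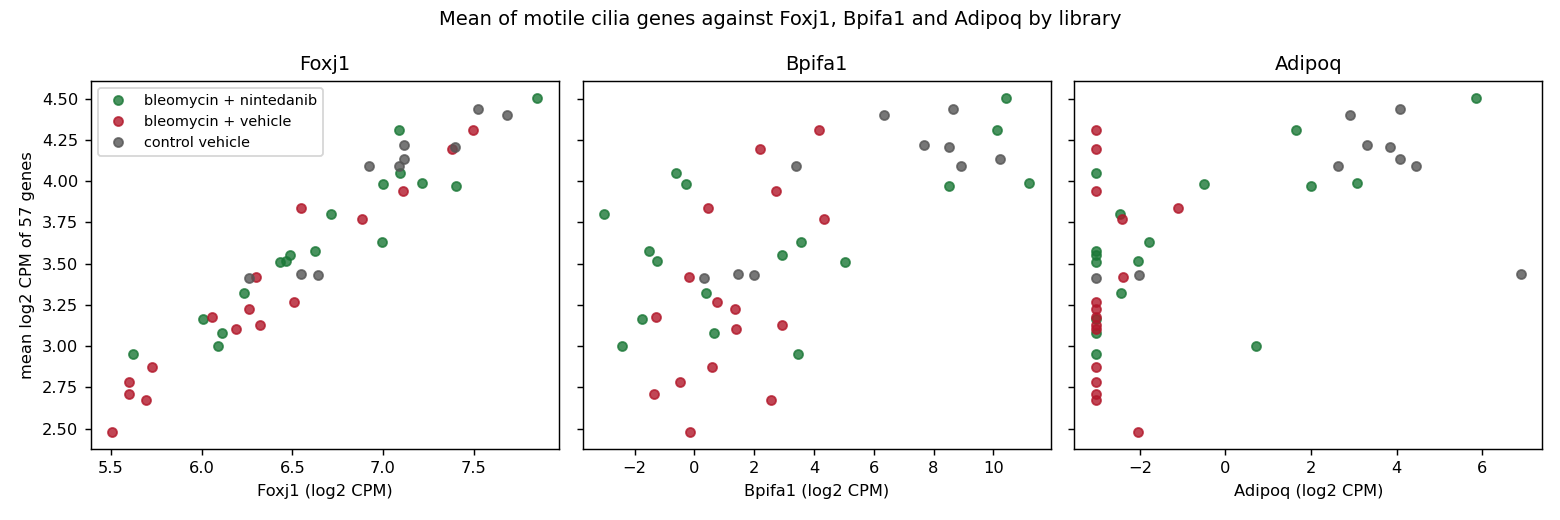
Mean log2 CPM of the 57 genes (y axis) against the log2 CPM of Foxj1, Bpifa1 and Adipoq (x axes) in each of 43 libraries, coloured by group in the order nintedanib, bleomycin vehicle and control. Libraries with more Foxj1 lie higher in each group, while libraries with little Bpifa1 or Adipoq span from 2.48 to 4.31.

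Within groups, the slope on Bpifa1 passed for 48 of the 57 genes, all positive, where 8.61% of all tested genes passed in that direction. The median slope was 0.08 log2 units per log2 unit of Bpifa1. Dnah5 had the steepest, 0.12 ± 0.02 (SE). The slope on Adipoq passed for 13 of the 57, all positive (3.82% of tested genes), with a median of 0.11. They included Dnah5 (0.16), Tekt1 (0.15), Rsph1 (0.13) and Dnaic2 (0.13). Fitted together, the slope on Bpifa1 passed for 9 genes (3.72% of tested genes) and the slope on Adipoq for 0 by edgeR (1.95%). In one group at a time, the Bpifa1 slope passed for 12 genes under nintedanib (4.19% of tested genes), 0 in bleomycin vehicle lungs (0.0202%) and 7 in control lungs (1.07%) by edgeR. At an unadjusted p under 0.05 it passed for 42 under nintedanib, 46 in bleomycin vehicle lungs and 47 in control lungs. The share of all tested genes at that cut was not counted, and the percentages above are those of the adjusted threshold. No member's slope on Bpifa1 was called as differing between groups (0.0404% of tested genes were). The Adipoq slope passed for 27 genes under nintedanib (4.42%) and by edgeR for 0 in control lungs (0.115%), where 6 had an unadjusted p under 0.05. In bleomycin vehicle lungs, where Adipoq was near its floor, it passed for 0 by edgeR (0% of tested genes), also at an unadjusted p.

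With both contents as covariates, the comparison of bleomycin vehicle with control lungs called 1 gene, Cfap36, higher (22.5% of tested genes) and 0 lower by edgeR (18.4% of tested genes), with 1 lower at an unadjusted p under 0.05. Dnah5 then stood at -0.30 on the log2 scale (edgeR adjusted p = 0.46), Rsph1 at -0.28 (adjusted p = 0.39), Dnah2 at -0.50 (adjusted p = 0.098) and Dnah17 at 0.34 (adjusted p = 0.10). With Bpifa1 alone as covariate, 8 genes were lower (22.6% of tested genes) and 2 higher (26.5%), with a median of -0.33. The 8 were Dnah2, Dnaic1, Rsph1, Tekt2, Cfap20, Cfap58, Cfap65 and Cfap157. With Adipoq alone, 0 were lower by edgeR (17.3%) and 1 higher (21.8%), with a median of -0.07 and 0 lower at an unadjusted p under 0.05. Since 0 of 16 bleomycin vehicle libraries reached 1 CPM of Adipoq and 8 of 10 control libraries did, group and Adipoq content are close to confounded, and their parts in the cilia genes cannot be told apart with this covariate.

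Libraries were also left out by content. When the 13 libraries at or above 1 CPM of Adipoq were dropped, 16 bleomycin vehicle and 2 control libraries remained, and 0 genes were lower (11.4% of tested genes) and 1 (Cfap36) higher (13.4%) by edgeR, with a median of -0.01. The 2 control libraries left, at 3.41 and 3.43, were the lowest and the second lowest of the control group in the mean of the 57 genes. With libraries at or above 100 CPM of Bpifa1 dropped, 16 bleomycin vehicle and 5 control libraries remained, and 7 genes were lower and 2 higher (22% and 24.2% of tested genes), with a median of -0.48. The 7 were Dnah2 (-0.72), Dnaic1 (-0.68), Rsph1 (-0.70), Tekt2 (-0.62), Cfap20 (-0.20), Cfap157 (-0.57) and Cfap161 (-0.77). Within number series A of the library names, which holds 11 bleomycin vehicle and 9 control libraries, 33 genes were lower (25% of tested genes) and 2 higher (27.5%).

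**Figure D5:**
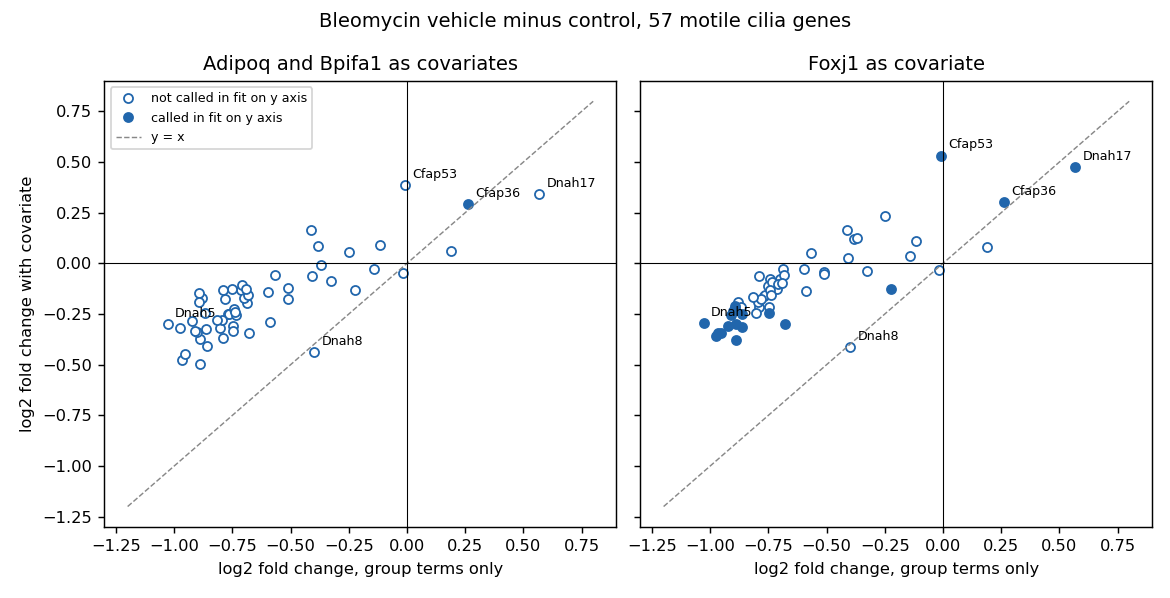
Log2 fold change of the 57 genes in bleomycin vehicle minus control lungs with group terms only (x axis) and with covariates added (y axis: Adipoq and Bpifa1 on the left, Foxj1 on the right); filled points have an adjusted p under 0.05 in the fit of the y axis and the dashed line marks equal values. On the left only Cfap36 is filled; on the right 15 genes are filled below 0 and Cfap36, Dnah17 and Cfap53 above it.

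Other cilia genes were counted in the same way in bleomycin vehicle against control lungs, where 28.3% of all tested genes fell and 29.5% rose. Of docking complex and nexin link genes, which anchor the arms and tie the doublets, 15 of 17 fell (median -0.70), among them Iqca (-1.201) and Ttc25 (-0.88). Of central pair genes 9 of 12 fell (median -0.61), among them Spef1 (-0.58) and Mycbpap (-0.79), and of dynein light and light intermediate chains and their partners 7 of 10 fell (median -0.71), among them Nme9 (-0.99) and Dnali1 (-0.90). Of dynein assembly factors 5 of 10 fell (median -0.54), with Dnaaf1 at -1.10 and Zmynd10 at -0.95. Of genes of the doublet interior and the spokes 14 of 25 fell and 2 rose (median -0.63), with Eno4 at -0.96 and Nme7 at 0.35. Of 12 cilia regulators 6 fell (median -0.35), with Rfx3, an RFX factor, at -0.58 and Tsga10 at -0.57. Intraflagellar transport and BBSome genes, which also serve non-motile cilia, had 18 of 37 fall and 2 rise (median -0.22), with Ttc21b at -0.32 and Kif3b at 0.35. With Adipoq and Bpifa1 as covariates, 18.4% of all tested genes were lower and 22.5% higher. There edgeR called 0 of the docking and nexin link genes (median -0.14), 0 of the central pair genes (median -0.16) and 0 of the assembly factors (median -0.08). In that fit 1 of the light chain genes was lower (median -0.18), 1 of the doublet interior and spoke genes was higher (median -0.08), and of the regulators 1 was lower and 1 higher (median -0.08). Of the transport genes 3 were lower and 4 higher (median -0.02).

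Markers of other cells are given for the airway epithelium and its surroundings, to be read against the same 28.3% of all genes that fell and 29.5% that rose. Of other ciliated cell genes 20 of 27 fell (median -0.70), with Tppp3 at -0.76 and Vpreb3, which is also a B cell gene, at -1.54. With both covariates 2 of the 27 were lower and 1 higher, where 18.4% of all tested genes were lower and 22.5% higher. Of club cell genes 12 of 16 fell (median -0.83), and Scgb1a1, the club cell secretoglobin, had 4854 to 17748 CPM in bleomycin vehicle lungs and 15598 to 28181 CPM in control lungs (log2 fold change -1.11), with Por at -0.64. With both covariates 4 of the 16 club cell genes were lower and 2 higher (median -0.40). Scgb1a1 was still lower there, at -0.95 (edgeR adjusted p = 8.8e-04). Of serous and upper airway genes 8 of 12 fell (median -1.60), with Bpifb5 at -1.21 and Tff2 at 0 to 0.606 CPM in bleomycin vehicle lungs and 0.123 to 12.041 CPM in control lungs. Of adipocyte genes 10 of 10 fell, with Plin4 at -3.04 and Cidec at -3.13. The summed level of the serous genes was 191 to 672 CPM in bleomycin vehicle lungs and 297 to 1983 CPM in control lungs, and that of the adipocyte genes was 46.7 to 80.9 CPM in bleomycin vehicle lungs and 58.0 to 3102 CPM in control lungs. The part of these contents in the fall of the cilia genes was not tested beyond the covariates and left-out libraries given above.

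Other epithelial lists are given for comparison, in the same fit and against the same shares of all genes. Of 16 general epithelial genes 11 rose (median 0.30), with Krt18 at 0.88 and Spint1 at 0.74, and of 10 alveolar type 2 genes 5 rose (median 0.31), with Lyz2, which macrophages also make, at 1.14 and Sftpd at 1.03. Of 10 alveolar type 1 genes 2 rose and 2 fell (median 0.10), with Pdpn at 0.60 and Hopx at -0.58. Of 8 basal cell genes 4 rose (median 1.32), with Krt14 at a median of 2.17 CPM in bleomycin vehicle lungs and 0.723 CPM in control lungs, and Krt17 at a median of 0.846 CPM in bleomycin vehicle lungs and 0.0616 CPM in control lungs. Of 4 cartilage genes 2 rose and 1 fell (median 0.71), with Hapln1 at 1.66 and Cytl1 at -2.02. The 1 male germ cell gene tested, Odf2, which centrioles of all cells use, fell by 0.11.

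The CPM rule left out 4 of the 61 genes. Dnah14 reached 1 CPM in 7 libraries and Tekt3 in 6, and Cfap97d1 and Rsph6a in 0. Nearest on the other side of the limit of 10 libraries were Cfap221 with 37 libraries, Cfap97d2 with 39 and Cfap73 with 40, so no gene lay close to the limit. All 57 kept genes reached 1 CPM in every control library, and 53 of them in all 43 libraries. Exons of 11 kept genes share bases with another protein-coding gene in the annotation, on the same strand for Cfap43 and Rsph10b, and their counts could include reads of the neighbour.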

How the data were processed

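Raw read counts per gene, as deposited by the authors, were whole numbers for 43 libraries. RNA was polyA-selected and made into directional single-end libraries, per the labels' protocols. The notes of the submitters list GRCm38, R 3.6.0 and STAR 2.7.0f but not what each did, per the submitters' processing notes. How reads were assigned to genes and strands is not given in the sources used here. Symbols and exon lengths came from a GENCODE annotation of GRCm38, which matched every gene identifier.

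The genes and gene lists were chosen with earlier results of these data known. The CPM of the membership rule used library totals, and printed CPM used TMM factors. Genes were tested with edgeR 4.0.16 (R 4.3.3): filterByExpr by group (minimum count 10, minimum total 15) kept 14836 genes, among them the 57, and glmQLFit (robust) with glmQLFTest used 1 coefficient per group over all 43 libraries, two-sided, with Benjamini-Hochberg adjustment over all tested genes and a threshold of 0.05. The median biological coefficient of variation was 13.6%. Slopes are coefficients of log2 CPM (prior count 2) of Foxj1, Bpifa1 or Adipoq beside the group terms. "Fell" and "rose" are used for calls in these fits. Shares of all tested genes were counted at the adjusted threshold only, so counts at an unadjusted p have no such share beside them. SE is the log2 value divided by the root of its F.

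Alternatives were RLE factors, library totals, other count filters, fits of 2 groups, DESeq2 1.42.0, libraries left out by Adipoq or Bpifa1 content, number series of the library names (A, B and C, 33, 4 and 6 libraries, of unstated meaning) and covariates. Bpifa1 or Adipoq alone as covariate, slopes by group and the shorter X-box pattern were added after the data had been seen. The scripts were tested on simulated counts with known changes. No pair of libraries within a group agreed within sampling noise (smallest chi-square per degree of freedom 5.22 over 301 pairs). The labels describe separate samples and do not state separate mice, so the p-values cover the spread among samples, which may be technical. Named genes are every kept Dnah, Dnai, Rsph and Tekt gene, the 6 Cfap genes highest per kilobase, the 4 Cfap genes with the smallest p in each comparison and those called against the majority, genes without a Foxj1 slope, those nearest the CPM limit, up to 2 genes of each of 18 lists with the smallest p in bleomycin vehicle against control, and the 5 genes most like the mean; a few more were named after their values had been seen. The result of 1 of the lists is not reported here.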

Additional observations from a re-analysis of the deposited data

Results flagged for a closer look

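In the control group (n = 10) the lowest or highest library was set against its nearest neighbour as a share of the group's range, for 57 genes and 4 summary values. The ratios were taken on the log2 CPM scale, while the levels below are printed as CPM. Dnah17 had a control library at 2.704 CPM, with the other 9 between 4.31 and 5.16 CPM, a ratio of 0.719. Dnah8 had a control library at 13.3 CPM, with the other 9 between 4.03 and 6.12 CPM, a ratio of 0.652. Both libraries enter the calls of these genes against control given above, and no fit left out either of them alone. Chance alone takes about 1 in 20 groups of this size past the limit used, and 2 of the 61 values tested passed it.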

How the results depend on the processing

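No paired analysis was possible because the labels give no replicate numbers. With RLE factors, other count filters, DESeq2 and series A, the counts of called cilia genes in all 3 group comparisons stayed within 1.5 times. For bleomycin vehicle against control, 47 of 57 cilia genes were called, beside 8585 of the 14836 genes tested. The count was 1 without Adipoq libraries (3680 of all genes) and 9 without Bpifa1 libraries (6859). Among covariate fits it was 1 with both contents (6074 of all genes), 18 with Foxj1 (7040), 10 with Bpifa1 alone (7285) and 1 with Adipoq alone (5795). For nintedanib against bleomycin vehicle, 1084 of all genes were called, against 661 with only the 2 groups. Without Adipoq libraries 568 were called, 681 without Bpifa1 libraries, 636 with both covariates and 620 with Adipoq alone. Among the cilia genes 1 was called with Foxj1 (1359 of all genes), and 0 in the other fits. For nintedanib against control, 11 cilia genes were called, beside 7888 of all genes. The count was 19 with library totals (8094 of all genes), 24 with only the 2 groups (8332) and 22 with the series covariate (8092). Without Adipoq libraries it was 1 (3345 of all genes), and without Bpifa1 libraries 5 (6709). It was 3 with both contents as covariates (6677 of all genes), 5 with Bpifa1 alone (7227) and 4 with Adipoq alone (6450).

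The slope on Bpifa1 was called for 2390 of all genes and 48 cilia genes; under nintedanib alone for 1061 and 12, in bleomycin vehicle lungs for 4 and 0, in control lungs for 160 and 7, in series A for 1099 and 45, and with Adipoq in the fit for 1209 and 9. The slope on Adipoq was called for 632 and 13; under nintedanib for 774 and 27, in bleomycin vehicle lungs for 0 and 0, in control lungs for 17 and 0, in series A for 324 and 1, and with Bpifa1 in the fit for 299 and 0. The slope on Foxj1 was called for 5148 genes, and for 1635 under nintedanib, 3077 in bleomycin vehicle and 580 in control lungs alone. Fits on one group hold fewer libraries.

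Signs of called values turned mostly without Adipoq libraries, where 2 control libraries remain. In bleomycin vehicle against control these were Cfap206 (0.10), Cfap44 (0.19), Cfap45 (0.042), Cfap54 (0.13), Cfap69 (0.058), Cfap73 (0.21), Cfap77 (0.0038), Cfap97d2 (0.33), Dnah10 (0.019), Dnah12 (0.15), Dnah3 (0.0077), Dnah6 (0.19), Dnah7c (0.23), Rsph10b (0.21), Rsph14 (0.32), Rsph4a (0.068) and Rsph9 (0.034); in nintedanib against control, Cfap65 (0.10), Dnah10 (0.19) and the median of the 57 (0.15). With Adipoq alone as covariate Cfap45 (0.014), Cfap97d2 (0.041) and Dnah12 (0.025) turned in bleomycin vehicle against control, as did the median in nintedanib against control (0.00023). With Foxj1, Cfap45 (0.028) and Cfap53 (0.53) turned in bleomycin vehicle against control, and Cfap52 (0.24) in nintedanib against control. Apart from those of Cfap53 and Cfap52 with Foxj1, the turned gene values did not pass the threshold in the other fit. In 199 of 3642 single-gene values the sign differed where neither fit called the gene. The cause of these changes was not tested. The rise of Cfap36 against control kept its sign and its call in every fit, under both treatments.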
